A study of Mus musculus with 6 samples.

Results

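The control adenovirus AdOVA was compared with no virus in mouse dendritic cells that had also received TNFa. Each side of the comparison is 1 Affymetrix MOE430A array, labelled AdOVA+TNFa and TNFa, of 6 arrays in the series. Its members are all 22626 non-control probe sets of 22690 on the array, and the measure is the log2 ratio of the deposited MAS5 signals. Signals under a floor of 53.5 were raised to the floor first. The cells were grown from bone marrow of a female CAR-transgenic mouse of 13 weeks, kept for 7 days as progenitors in SCF, hyperIL-6, Flt-3L, IGF-1, dexamethasone and a low dose of GM-CSF, and differentiated for 7 days in GM-CSF at 250 U/ml. The AdOVA+TNFa cells were exposed to AdOVA at 1500 particles per cell for 2 h and cultured for 18 h more, and TNFa at 50 ng/ml was then present for the last 4 h. The TNFa cells received the same TNFa treatment without virus. CAR transgene and GM-CSF culture are therefore common to both sides, and the labels record no mock transduction, so virus and transduction procedure cannot be told apart. Separate animals or cultures per group are not recorded.

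Dendritic cells take up antigen and show it to T cells. CAR is the coxsackievirus and adenovirus receptor, which human adenoviruses bind to enter a cell and which mouse leukocytes hardly carry, so the transgene makes these cells easy to transduce. Adenoviral DNA and capsid are sensed by innate receptors. That sensing turns on IRF transcription factors, which drive type I interferon and, through STAT proteins, the interferon-stimulated genes, and it also turns on NF-kB, which drives inflammatory cytokines. TNFa acts through its own receptors and also activates NF-kB, so the comparison asks what the control virus adds where TNFa is already present.

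Both arrays were set to a common average by MAS5 (2% trimmed mean 200.1 on each), and the median signal was 76.5 on the TNFa array and 88.5 on the AdOVA+TNFa array. For 18S ribosomal RNA the 5' probe set read 176 on the TNFa array, 120.3 on the untreated array, 234 on the AdOVA array and 2601 on the AdOVA+TNFa array. The ratio of the 3' to the 5' probe set was 0.742 and 0.832 for Gapdh and 1.49 and 1.38 for beta-actin on the TNFa and AdOVA+TNFa arrays. The recorded hybridization time puts the TNFa, untreated and AdOVA arrays in 1 round and the AdOVA+TNFa array in another, so in this comparison the virus cannot be told apart from the round or from whatever raised the 18S signal. The pair AdOVA over untreated, which shares no array with it, lies within 1 round and is set beside it throughout.

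With TNFa present, 932 of 14902 measured probe sets (6.25%) were at least 2-fold higher with AdOVA and 738 (4.95%) at least 2-fold lower. Measured means above the floor on at least 2 of the 6 arrays, and 7724 probe sets were not. Over all 22626 members the counts were 949 (4.19%) and 741 (3.27%). At 4-fold 85 were higher and 33 lower, and at 8-fold 19 and 2. Of the 932, 185 had 1 array under the floor, and of the 738, 100, so that their ratio is a bound. Which direction led changed with the scaling. With the arrays set to equal medians, a shift of 0.21 on the log2 scale, the counts were 565 higher and 1266 lower, and with quantile normalization 804 and 878. Ratios of many members below are therefore best read against the median over all measured genes, which was 0.08.

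Without TNFa, 658 probe sets (4.42%) stood higher with AdOVA than on the untreated array by 2-fold or more, and 664 (4.46%) lower. The lists of both pairs shared 285 higher probe sets (1.91% of those measured), which is 30.6% of the list with TNFa and 43.3% of the list without, and 204 lower ones (1.37%), 27.6% and 30.7%. A further 459 of the 932 were higher without TNFa by less than 2-fold, and 188 were at or below 0. Of the 738, 465 were lower by less than 2-fold and 69 at or above 0. Among the brightest 25% of measured probe sets, 15.8% were 2-fold apart with TNFa and 10.0% without, and among the dimmest 25% 4.75% and 4.64%. Most probe sets that stood apart by 2-fold with TNFa thus leaned the same way without it.

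A single array per group gives this comparison no test. limma was therefore fitted to the untreated, TNFa, AdOVA and AdOVA+TNFa arrays with 1 term for AdOVA and 1 for TNFa, which leaves 1 residual degree of freedom. It tests the mean AdOVA effect over both TNFa states, and the arrays may be technical samples of the same culture. Its spread is the disagreement between both pairs, mostly as pooled over probe sets, with 17.6 prior degrees of freedom beside the 1 residual. A call therefore does not show that both pairs agree for that gene. Nos2, for example, was called although its log2 ratios differed by 1.80 between pairs. In what follows "rose" and "fell" mean a limma Benjamini-Hochberg adjusted p under 0.05 in that fit. Signals given as from 1 value to another are those of the TNFa and AdOVA+TNFa arrays, a pair that limma did not test by itself. It called 576 of 14902 probe sets as risen (3.87%) and 581 as fallen (3.9%). Of the 932 higher probe sets 430 were called as risen, and of the 738 lower ones 412 as fallen, in a fit that includes the pair that gave both lists. These calls end when the round is a block in an additive limma fit of all 6 arrays, with 0 called and 2041 at an unadjusted p under 0.05. That fit also had 1.62 prior degrees of freedom in place of 17.6. It includes an array outside this comparison, labelled AdIkBa-SR, with another fluidics protocol and a first stain of 420 s against 600 s on the others. The part of the block alone in the loss of calls was not tested.

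The 10 genes furthest above the TNFa array with AdOVA were chemokine, interferon-stimulated, cytokine and NF-kB pathway genes and Nos2, and the 10 furthest below it were of mixed function. Genes are read from their brightest probe set with 1 symbol, which gives 8926 measured genes, of which 560 (6.27%) were higher by 2-fold or more and 409 (4.58%) lower, or 334 and 711 with equal medians. In bulk samples, fewer cells of a type and less RNA per cell cannot be told apart. Cxcl10, a chemokine that draws activated T cells, had a signal of 330.3 on the TNFa array and 7073 on the AdOVA+TNFa array, 21.4-fold apart. Oasl1, of the oligoadenylate synthetase-like family, had 268 and 4396, 16.4-fold apart. Cmpk2, a nucleotide kinase of mitochondria, had 209.8 and 3333. These 3 were close to the same distance apart without TNFa, at 25.2-fold, 16.8-fold and 19.1-fold.

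Nos2, the inducible nitric oxide synthase of activated myeloid cells, was next, with 233 on the TNFa array and 3444 on the AdOVA+TNFa array, 14.8-fold apart. Without TNFa its signals were 151 untreated and 639.9 with AdOVA, 4.2-fold apart, so the AdOVA+TNFa array stood highest of the 4. Tnfaip3, the gene of A20, which shuts off NF-kB signalling, showed the same order, with 162 untreated, 189 with TNFa, 512 with AdOVA and 1462 with AdOVA and TNFa. The log2 ratio with TNFa was larger than that without by 1.80 for Nos2 and 1.29 for Tnfaip3. These differences were not tested.

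Ifit1, whose protein binds viral RNA, had 691 and 5604 with TNFa and 903 and 8235 without. Its relative Ifit2 had 453 and 4647 with TNFa, 10.3-fold apart, and 624 and 6032 without, 9.7-fold apart. Both genes were about as far apart in either state. Cxcl11, which shares its receptor with Cxcl10, had 95.7 and 928, though the mean log2 ratio over its 2 probe sets was 1.75 in place of 3.28. Cxcl1, an attractant of neutrophils, had 286 and 2638. Il6, a cytokine of the acute phase, had 326 and 2749, and its ratio was larger without TNFa, at 14.7-fold against 8.4-fold. All 10 genes rose in limma, where Tnfaip3 had the highest adjusted p, 6.27e-05. The pair used to choose them is part of that fit, so these calls are no separate support. All 10 stayed at least 2-fold higher with equal medians, quantile normalization or the mean over all their probe sets. The equal-medians shift of 0.21 is too small to bring ratios of this size under 2-fold.

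**Figure D1:**
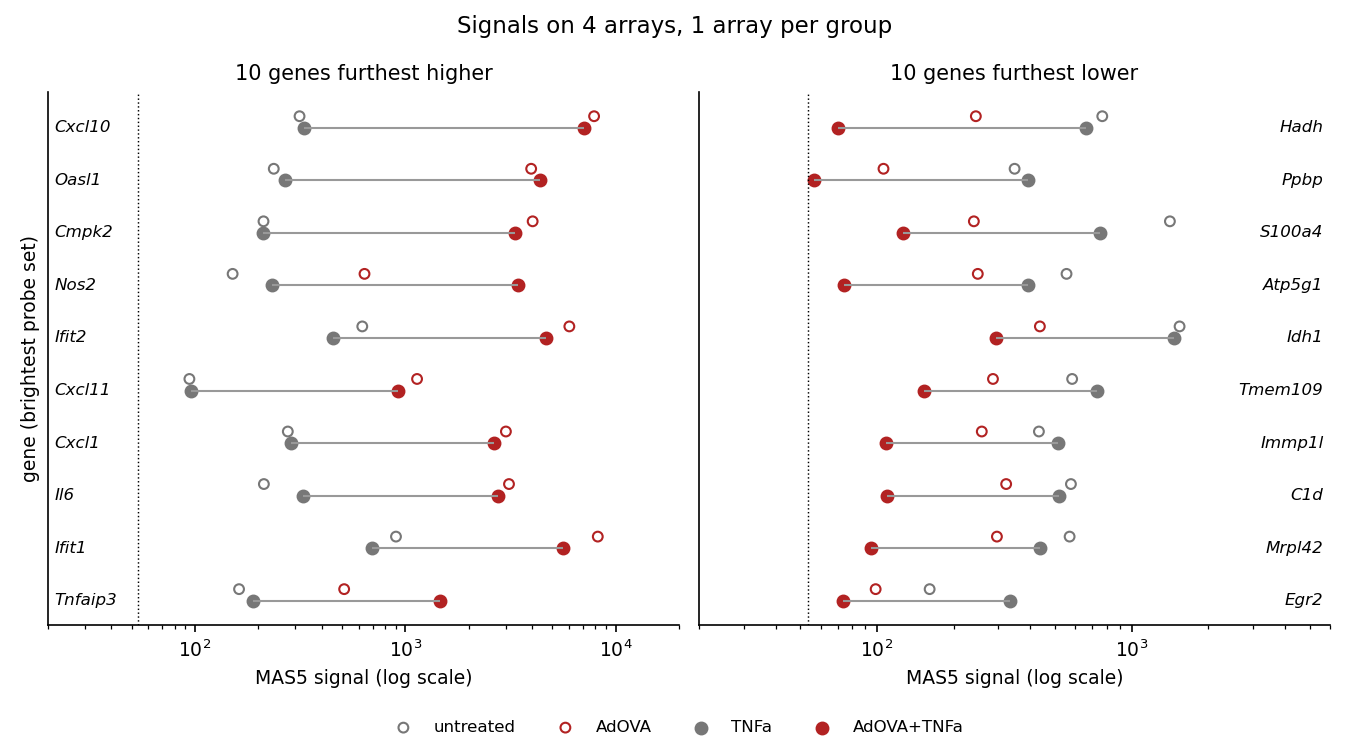
MAS5 signal (log scale) on the TNFa array (filled grey), the AdOVA+TNFa array (filled red), the untreated array (open grey) and the AdOVA array (open red) for the 10 genes with the largest ratio in each direction, with 1 array per group, no error bars and the floor of 53.5 as a dotted line. Cxcl10 runs from 330.3 to 7073 and Hadh from 663 to 70.2, and the open symbols show the same direction without TNFa for all 20 genes.

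Promoters of the leading genes were read for the sites of the factors named above, and those that hold a match are shown because they stand at the top of the ratio. RefSeq promoters (GRCm38.p6, the 250 bases before the gene start) were found for 8 of the 10 genes. Of these genes 2 held the core of the interferon-stimulated response element and 2 a form of the NF-kB site. The promoters of Oasl1, Cmpk2, Ifit2 and Tnfaip3 held no match. Capitals mark the match, which is the core of the interferon-stimulated response element in Cxcl10 and Ifit1, and a form of the NF-kB site in Cxcl1 and Il6. Both strands were searched, and in Ifit1 both cores lie on the other strand and appear as their reverse complement. The regions are chr5:92348890-92349139 on the minus strand for Cxcl10, chr19:34640639-34640888 on the plus strand for Ifit1, chr5:90890995-90891244 on the plus strand for Cxcl1 and chr5:30012864-30013113 on the plus strand for Il6.
Cxcl10: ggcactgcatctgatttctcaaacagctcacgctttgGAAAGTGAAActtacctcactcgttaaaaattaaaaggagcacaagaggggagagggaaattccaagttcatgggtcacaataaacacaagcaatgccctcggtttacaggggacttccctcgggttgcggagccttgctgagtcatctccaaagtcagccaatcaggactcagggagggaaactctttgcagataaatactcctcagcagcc
Ifit1: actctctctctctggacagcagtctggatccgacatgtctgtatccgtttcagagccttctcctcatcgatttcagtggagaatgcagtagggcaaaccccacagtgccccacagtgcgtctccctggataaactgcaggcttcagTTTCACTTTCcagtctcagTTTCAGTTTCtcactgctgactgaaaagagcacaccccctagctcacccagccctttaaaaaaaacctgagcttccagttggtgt
Cxcl1: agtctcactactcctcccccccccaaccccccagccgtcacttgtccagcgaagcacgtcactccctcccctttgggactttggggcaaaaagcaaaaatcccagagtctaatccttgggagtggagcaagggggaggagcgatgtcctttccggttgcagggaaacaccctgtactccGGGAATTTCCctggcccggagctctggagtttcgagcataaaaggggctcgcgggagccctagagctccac
Il6: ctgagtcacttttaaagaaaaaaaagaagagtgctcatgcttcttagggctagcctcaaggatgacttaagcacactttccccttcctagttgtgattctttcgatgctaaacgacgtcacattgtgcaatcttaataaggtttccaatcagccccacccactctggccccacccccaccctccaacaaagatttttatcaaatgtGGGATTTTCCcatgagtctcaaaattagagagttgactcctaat
The matches begin 213 bases before the start in Cxcl10, 104 and 85 in Ifit1, 71 in Cxcl1 and 44 in Il6.

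Over the promoters of all genes at least 2-fold higher with TNFa, 29 of 575 (5.04%) held the core of the interferon-stimulated response element, against 18 of 410 (4.39%) for genes at least 2-fold lower and 978 of 32851 (2.98%) in the whole table. The NF-kB form was in 5 of 575 (0.870%), 1 of 410 (0.244%) and 117 of 32851 (0.356%). A form of the heat-shock element was in 0 of 575, 4 of 410 and 153 of 32851. Both sets of genes come from the measured genes, whose promoters held the response element core in 258 of 9338 (2.76%). They held the NF-kB form in 42 of 9338 (0.450%) and the heat-shock form in 37 of 9338 (0.396%). Higher and lower genes thus differed little in their share of the response element core, and no test was made. These are matches of letters in a short window and not sites shown to be bound.

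On the lower side, Hadh, an enzyme of fatty-acid oxidation, had 663 on the TNFa array and 70.2 on the AdOVA+TNFa array, 9.4-fold apart. Over its 3 probe sets the mean log2 ratio was -1.33 in place of -3.24. Ppbp, a platelet chemokine, had 392 and 56.4. S100a4, a calcium-binding protein of motile cells, had 753 and 127, 6.0-fold apart, and 1414 untreated and 240.1 with AdOVA, 5.9-fold apart, so it was as far apart without TNFa. Idh1, the cytosolic isocitrate dehydrogenase, had 1470.1 and 294 with TNFa.

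All of the lower 10 but S100a4 were further apart with TNFa than without. Hadh was 9.4-fold lower against 3.1-fold, Ppbp 6.9-fold against 3.3-fold and Idh1 5.0-fold against 3.5-fold. Atp5g1, a subunit of the ATP synthase ring, was 5.3-fold lower with TNFa and 2.2-fold without, and Mrpl42, a mitochondrial ribosomal protein, 4.6-fold and 1.9-fold. Immp1l, a protease of the inner mitochondrial membrane, had 516 and 109. Egr2, an early growth response factor, had 161 untreated, 334 with TNFa, 98.8 with AdOVA and 73.2 with both, so TNFa without virus gave the highest of the 4 signals. The mean log2 ratio over its 2 probe sets was -1.54 in place of -2.19, and that of Mrpl42 -1.10 in place of -2.19. Tmem109 and C1d complete the set, and for these the mean over all probe sets was under 2-fold, at log2 -0.91 and -0.84. All 10 fell in limma, and Egr2 had the highest adjusted p, 0.0222. Here too the pair used to choose the genes is part of the fit, so the calls are no separate support.

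Some genes crossed the floor, so their folds are lower bounds. Mx2, an antiviral dynamin-like GTPase, read 15.3 on the TNFa array, under the floor, and 565 on the AdOVA+TNFa array, at least 10.6-fold higher. Rassf1, a Ras-association domain protein, read 41 and 546, at least 10.2-fold higher, while without TNFa it was 129 and 422. Fen1, the flap endonuclease of DNA replication, was at least 10.5-fold lower, from 561 to 51.9. Ncbp1, a subunit of the nuclear cap-binding complex, was at least 6.0-fold lower, and Sf3b5, a splicing factor subunit, at least 5.7-fold. Hsd17b10, a mitochondrial dehydrogenase, was at least 5.0-fold lower and Ldhb, a lactate dehydrogenase subunit, at least 4.3-fold. Gm29722, Gm9706 and Aif1l were at least 5.4-fold, 4.3-fold and 4.9-fold higher. Of these 10 genes limma called all but Aif1l (adjusted p = 0.105), in a fit that includes the pair used to choose them. The mean over all probe sets was under 2-fold for Aif1l and Ldhb. That mean was log2 -2.08 for Fen1, -1.26 for Sf3b5 and -1.24 for Hsd17b10, all smaller in size than their bounds.

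Interferon-stimulated genes stood higher as a list. With TNFa, 30 of 40 measured members were at least 2-fold higher and 0 lower, against 6.27% and 4.58% of all measured genes, and 23 remained with equal medians. Without TNFa 26 were 2-fold higher, against 4.53% of all measured genes, and 0 lower, against 4.17%. The median log2 ratio was 1.55 with TNFa and 1.33 without, and limma called 30 as risen and 0 as fallen, against 3.92% and 3.42% of all measured genes. The interferon-induced GTPases rose, with Gbp2 at 1447 and 7201, Gbp3 at 281 and 1272 and Irgm2 at 127 and 643. Rsad2, the antiviral enzyme viperin, rose from 2834 to 15999. Among the factors that carry the interferon signal, Stat2 rose from 345 to 1421 and Irf1 from 590.2 to 1329.6, while Irf7 stood at 2420.5 and 5589 (limma adjusted p = 0.157).

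Several members were further apart with TNFa than without. Adar, which edits double-stranded RNA, stood 3.5-fold higher with TNFa and 1.5-fold without, Ifi204 4.1-fold and 1.7-fold, and Dhx58, a helicase that tunes RNA sensing, 3.3-fold and 1.6-fold. Others were less far apart, such as Isg20, an exonuclease, at 3.3-fold with TNFa and 5.7-fold without. Zbp1, a sensor of nucleic acids, had 690.1 and 681, and Irf8, a factor of dendritic cell development, 387 and 301. Neither was called, and the mean over the 2 probe sets of Zbp1 was 0.49 in place of -0.02.

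Chemokines moved both ways. Of 19 measured, 6 were at least 2-fold higher with TNFa and 3 lower, against 6.27% and 4.58% of all measured genes. With equal medians 4 were higher and 3 lower. limma called 7 as risen and 2 as fallen, against 3.92% and 3.42% of all measured genes. Ccl4 rose, with 594 and 1935, 3.3-fold apart with TNFa and 6.0-fold without. Cxcl2 rose from 3414 to 7816. Ccl2, the main monocyte attractant, had 5162 and 5536 with TNFa and 5977 and 9689 without, and was not called. Ccl17, which draws CCR4-bearing T cells to dendritic cells, fell from 1352 to 415. Pf4, like Ppbp a platelet chemokine, had 6057 and 2629 and was not called.

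Of 18 measured cytokines, 9 were at least 2-fold higher with TNFa and 0 lower, against 6.27% and 4.58% of all measured genes. With equal medians 6 were higher. In limma 10 rose, against 3.92% of all measured genes. The median log2 ratio was 0.94 with TNFa and 0.87 without. Il12b, the p40 chain shared by IL-12 and IL-23, rose from 151 to 562. Its signals without TNFa were 186 and 303, so the highest of the 4 was on the AdOVA+TNFa array. Ifnb1, the gene of interferon beta, rose from 46.6, under the floor, to 153, with 62.4 untreated and 259.8 with AdOVA. Il1b had 3788 untreated, 6636 with TNFa, 13872 with AdOVA and 12233 with both. Tnf itself had 139, 318, 598 and 583 in the same order. For both genes the signal with AdOVA was about the same with and without TNFa, and the ratio with TNFa was the smaller, at 1.8-fold against 3.7-fold and 1.8-fold against 4.3-fold.

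Of 20 measured NF-kB pathway genes, 6 were at least 2-fold higher with TNFa and 0 lower, against 6.27% and 4.58% of all measured genes. With equal medians 4 were higher. In limma 5 rose, against 3.92% of all measured genes. Besides Tnfaip3 these were the IkB family genes Nfkbib and Nfkbiz, the co-activator Bcl3 and the adaptor Traf1. Bcl3 had 135 and 447 with TNFa and 189.8 and 255 without. The subunit genes Relb and Rela had 102 and 266, and 584 and 1190.0, and were not called. Nfkbia, the gene of IkBa, had 10697 and 9729 with TNFa against 10622 and 16336 without. The direction with TNFa depends on the probe set, since the log2 ratio was -0.14 on the brightest and 0.57 as the mean over 4. Ikbkb and Ikbkg, of the IkB kinase complex, stayed within 2-fold.

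Among dendritic cell maturation genes, 7 of 24 were at least 2-fold higher with TNFa and 0 lower, against 6.27% and 4.58% of all measured genes. With equal medians 5 were higher and 1 lower. In limma 6 rose, against 3.92% of all measured genes. Ptgs2, the inducible cyclooxygenase, rose from 803 to 4209.7, and without TNFa it had 239 and 2148. Ccr7, the receptor that guides dendritic cells to lymph nodes, rose from 177 to 516. Cd274, the gene of the inhibitory ligand PD-L1, rose from 4842 to 9516. Cd40, Cd80 and Cd86, receptors and ligands of costimulation, were not called, with Cd40 at 97 and 185, Cd80 at 193 and 284 and Cd86 at 758 and 711. Without TNFa Cd86 was 2.0-fold higher with AdOVA. Slamf1, a costimulatory receptor, rose from 204 to 454, and Tnfsf9, the costimulatory ligand of the cytokine list, from 106 to 256. Cd83, a maturation marker, had 388 and 270.0.

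Antigen presentation was read for both MHC classes. In MHC class I processing 3 of 17 members were at least 2-fold higher, against 6.27% of all measured genes, and 2 with equal medians. In limma 4 rose, against 3.92% of all measured genes. They were the peptide transporter genes Tap1 (431 and 1292) and Tap2 (356 and 903), Tapbpl and the immunoproteasome subunit gene Psmb9. The mean log2 ratio over the 4 probe sets of Tap1 was 0.40 in place of 1.58. In MHC class II presentation 0 of 12 members were 2-fold higher and 0 lower, and Lgmn, a lysosomal protease, fell from 1074 to 584. H2-Ab1 had 341 and 581 and H2-Aa 982 and 704, in opposite directions although they encode the chains of 1 molecule. The median log2 ratios were 0.67 and -0.15. A test of the difference between both lists was not made.

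Of 25 uptake and complement receptors, 1 was at least 2-fold higher with TNFa and 4 lower, against 6.27% and 4.58% of all measured genes, and 0 and 4 with equal medians. Fcgr1, the high-affinity receptor for IgG, rose from 482 to 1011. Cd93, a receptor of myeloid cells, fell from 427 to 112, the scavenger receptor gene Cd36 from 969 to 314, and Itgax, the gene of CD11c, from 755 to 329. The 2 probe sets of Cd93 disagreed, with a mean log2 ratio of -0.66 in place of -1.93. Clec7a, the beta-glucan receptor dectin-1, had 5894 and 2503 and was not called. Among 18 Toll-like receptors and sensors, 4 were at least 2-fold higher and 1 lower, against the same shares, and 3 and 2 with equal medians. Nlrp3, the inflammasome sensor, rose, and had 357 and 1300.3 with TNFa and 272 and 452 without. Tlr3, a receptor for double-stranded RNA, rose from 98.7 to 238. Tlr4 had 1205 and 682, and Irak1, an adaptor kinase of these receptors, 179.6 and 80.6, and neither was called. The mean over the 4 probe sets of Irak1 was -0.48 in place of -1.16.

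**Figure D2:**
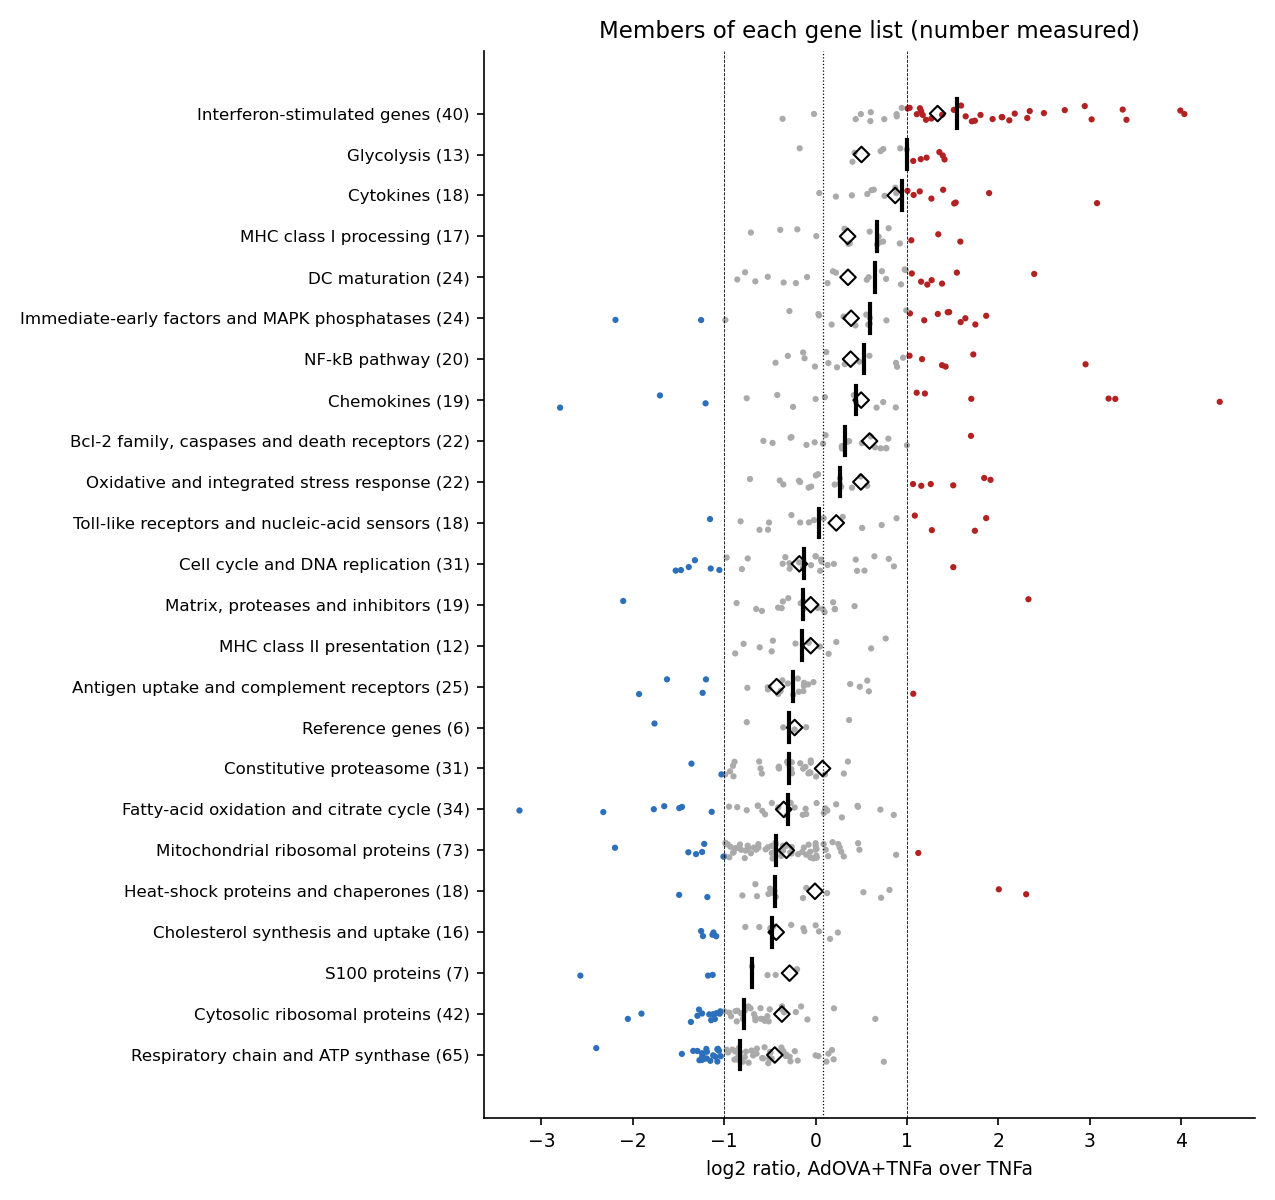
Log2 ratio of AdOVA+TNFa over TNFa for each measured member (dots, red at least 2-fold higher, blue at least 2-fold lower) of 24 gene lists, with the list's median as a bar, its median for AdOVA over untreated as a diamond, and the median of all measured genes as a dotted line. Interferon-stimulated genes stand furthest right with a median of 1.55, and respiratory chain genes furthest left with -0.83.

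Of 22 oxidative and integrated stress genes, 6 were at least 2-fold higher with TNFa and 0 lower, against 6.27% and 4.58% of all measured genes. The median log2 ratio was 0.26, or 0.05 with equal medians, where 4 were higher. Cdkn1a, the cell-cycle inhibitor p21, rose from 969.7 to 3652, Ddit4, an inhibitor of mTOR signalling, from 369 to 1326, and Hmox1, the haem-degrading enzyme, from 2102 to 5965. Sod2, the mitochondrial superoxide dismutase, had 7366 and 6549.7 with TNFa but 6469 and 12384 without, and the mean over its 3 probe sets with TNFa was log2 0.07 in place of -0.17. Among 18 heat-shock genes 2 were at least 2-fold higher and 2 lower, against 6.27% and 4.58% of all measured genes. Hspa1a rose from 105 to 421 and Hspa1b from 94.3 to 465; these are near-identical genes whose probe sets may read both, and the mean over the 3 probe sets of Hspa1b was log2 2.99 in place of 2.30. Hspd1, the mitochondrial chaperonin, fell from 1080.1 to 384, and its partner gene Hspe1 had 253 and 111. The median of the heat-shock list was -0.44 with TNFa and -0.01 without, and with TNFa it was -0.14 as the mean over all probe sets and -0.65 with equal medians.

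Immediate-early factors and MAPK phosphatases had 9 of 24 members at least 2-fold higher with TNFa and 2 lower, against 6.27% and 4.58% of all measured genes. limma called 8 as risen and 2 as fallen, against 3.92% and 3.42%. The AP-1 genes Jun (278 and 1013), Junb (319.5 and 1073) and Fosl1 (53.4, just under the floor, and 161) rose. Zfp36, whose protein destabilises cytokine mRNA, rose from 331 to 911. The mean over the 2 probe sets of Fosl1 was log2 0.79 in place of 1.59. Fos had 592 and 608. Myc fell from 127 to 42.4, a value under the floor, in the same direction as Egr2. In the list of the Bcl-2 family, caspases and death receptors, 1 of 22 was at least 2-fold higher, against 6.27% of all measured genes. It was Casp9, at 61.6 and 199.9 (limma adjusted p = 0.076). Casp4, the inflammatory caspase-11 gene, and Casp8 rose, with 627 and 1071, and 906 and 1484.

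Genes of energy metabolism divided by pathway. Of 13 glycolysis genes, 6 were at least 2-fold higher with TNFa and 0 lower, against 6.27% and 4.58% of all measured genes, and 4 remained with equal medians. Without TNFa 1 was higher, against 4.53%. The median log2 ratio was 1.00 with TNFa and 0.50 without, and 5 rose, against 3.92% of all measured genes. Slc2a1, the glucose transporter, rose, and had 2361 and 6033 with TNFa and 2541 and 4600.1 without. Hk1, a hexokinase, rose from 697 to 1828, and Slc16a3, which exports lactate, from 593 to 1577. Aldoa, an aldolase, had 4917 and 10909.8 with TNFa but 5409 and 5510.2 without, and was not called (adjusted p = 0.314). Pfkl, a phosphofructokinase subunit, likewise had 736 and 1542, and 700.2 and 564.

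Respiratory chain and ATP synthase subunits went the other way. Of 65 measured, 0 were at least 2-fold higher with TNFa and 21 lower, against 6.27% and 4.58% of all measured genes. With TNFa 58 had a log2 ratio below 0, as did 3747 of 8926 measured genes. Without TNFa 4 were at least 2-fold lower, against 4.17% of all measured genes. limma called 15 as fallen and 0 as risen, against 3.42% and 3.92% of all measured genes. The median was -0.83 with TNFa and -0.45 without. Cox5a, a subunit of cytochrome oxidase, fell, with 3687 untreated, 2132 with TNFa, 1927 with AdOVA and 884 with both. Ndufc2 of complex I fell likewise, with 1882, 1309, 1173 and 534. In both genes the TNFa array was below the untreated array and the AdOVA+TNFa array was the lowest of the 4. Cox5b, another oxidase subunit, stood at 1205 and 2021 on its brightest probe set, but the mean log2 ratio over its 6 probe sets was -0.15 in place of 0.75.

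Of 34 genes of fatty-acid oxidation and the citrate cycle, 7 were at least 2-fold lower with TNFa and 8 without. The shares of all measured genes were 4.58% and 4.17%. In limma 8 fell, against 3.42% of all measured genes. Citrate synthase (Cs) fell from 1126 to 512, Idh3a from 388 to 138 and Sdhd, an anchor of complex II, from 963 to 349.5. As the mean over all probe sets the log2 ratios were smaller in size, at -0.53 for Cs, -0.77 for Idh3a and -0.78 for Sdhd. The list median was -0.30, so most of its members lay within 2-fold. Mitochondrial ribosomal proteins had 6 of 73 members at least 2-fold lower and 1 higher, with a median of -0.44, against 4.58% lower among all measured genes. With equal medians their lower count was 18, and with quantile normalization 14. With equal medians that of the respiratory chain was 34. Over all 8926 measured genes the lower count was 711 with equal medians and 488 with quantile normalization.

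Cytosolic ribosomal proteins had 13 of 42 measured members at least 2-fold lower with TNFa and 0 higher, against 4.58% and 6.27% of all measured genes. Without TNFa 2 were lower, against 4.17%, and 6 fell in limma, against 3.42%. With equal medians 21 were lower, beside 711 of 8926 measured genes. Rpl6 fell, with 3844 and 1026 with TNFa and 4334 and 2906 without, and Rpl4 fell from 4242 to 1752. Rps3 had 1912 and 1796. The list median was -0.78 with TNFa and -0.37 without. Ribosomal protein genes have many near-identical pseudogenes, so single members are uncertain. The AdOVA+TNFa array, which carries all these ratios, is also the array with the 18S signal of 2601, and the part of that in the lower ribosomal and mitochondrial signals was not tested.

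**Figure D3:**
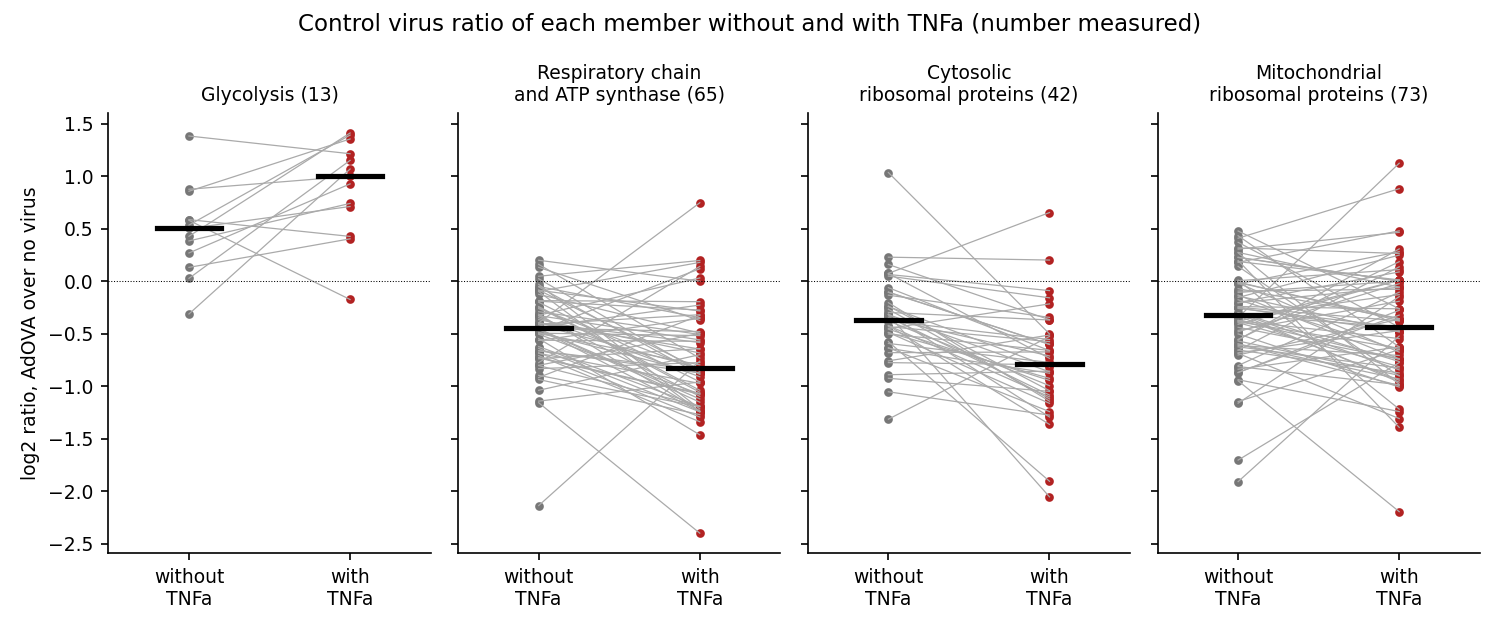
Log2 ratio of AdOVA over no virus for each measured member of 4 gene lists, without TNFa (grey, AdOVA over untreated) and with TNFa (red, AdOVA+TNFa over TNFa), joined by lines, with medians as bars. The glycolysis median is 0.50 without and 1.00 with TNFa, and that of the respiratory chain -0.45 and -0.83.

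Other housekeeping functions showed smaller counts. The constitutive proteasome had 2 of 31 subunits at least 2-fold lower and 0 higher, against 4.58% lower among all measured genes. Under equal medians 7 were lower, beside 711 of 8926 measured genes. Psmb7 fell from 1948 to 759.9. Cholesterol genes had 5 of 16 lower with TNFa, against 4.58% of all measured genes, and 1 without. Among the 5 were Idi1 (226 and 96.3) and Msmo1 (643 and 270.0), and limma called 0 (median -0.48, and -0.20 as the mean over all probe sets). Cell-cycle genes had 6 of 31 lower and 1 higher, against 4.58% and 6.27% of all measured genes. Rrm2, of ribonucleotide reductase, fell from 149 to 33.5, under the floor, and Gmnn, the replication inhibitor geminin, from 162 to 61.8, while Ccne1, cyclin E1, rose from 72.3 to 205. The mean over the 3 probe sets of Rrm2 was log2 -0.67 in place of -1.47.

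In the matrix list Mmp13, a collagenase, rose from 575 to 2886 and Fn1, fibronectin, fell from 2259 to 525 (mean over 2 probe sets log2 -1.46 in place of -2.10), and the other 17 of 19 lay within 2-fold. Among all measured genes 6.27% were at least 2-fold higher and 4.58% lower. All 7 measured S100 genes had a log2 ratio below 0, as did 3747 of 8926 measured genes. Of the S100 genes 3 were at least 2-fold lower, against 4.58% of all measured genes. S100a4 and S100a6 fell, against 3.42% of all measured genes. The summed signal of granulocyte markers, which include S100a8 and S100a9, was 36307 untreated, 27567 with TNFa, 31836 with AdOVA and 23122 with both, and its part in the S100 values was not tested. Among 6 reference genes, Hprt fell from 929 to 274 and Gusb from 596 to 353, while Actb had 14874 and 11635. Hprt and Gusb, often used to normalize, were thus not level across these arrays.

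The cell label was checked against markers. Dendritic cell genes were present, with Cd74 at 1993 and 2331, Itgax at 755 and 329 and H2-Eb1 at 377 and 389 on the TNFa and AdOVA+TNFa arrays, while Flt3 was under the floor on both. Of 16 measured dendritic cell markers 2 were at least 2-fold higher and 2 lower, against 6.27% and 4.58% of all measured genes. The ratio was above 0 for 6 and below 0 for 10, with a median of -0.21. Their summed signal was 9820 and 8653. Monocyte and macrophage markers were bright too, with Csf1r at 8848 and 5051 (mean over 3 probe sets log2 -0.07 in place of -0.81) and Adgre1 at 5042 and 4604, and their summed signal was 39859 and 35709. Of 9 measured in that list 1 was at least 2-fold higher, Fcgr1, which rose, and 0 were lower. The shares of all measured genes were 6.27% and 4.58%. The ratio was above 0 for 2 of the 9 and below 0 for 7. Of 11 measured granulocyte markers 3 were at least 2-fold lower, Camp, Ctsg and S100a9, against 4.58% of all measured genes. The ratio was above 0 for 4 and below 0 for 6, limma called 0 as fallen and 0 as risen, and Elane was under the floor on both arrays. In the T cell list Cd3d, Cd3e, Cd3g, Cd4, Cd8a and Cd8b1 were under the floor on both arrays, in the B cell list Cd79b and Pax5, and in the NK list Ncr1 and Klrd1. The measured T, B, NK, erythroid and stromal markers all lay within 2-fold with TNFa. The T cell list had 2 measured members. Without TNFa 1 was at least 2-fold higher, against 4.53% of all measured genes, and limma called 1 as risen, against 3.92%. Of 10 mast cell and basophil markers 2 were at least 2-fold higher, Hdc and Mcpt2, against 6.27% of all measured genes. limma called Hdc as risen and Cpa3 as fallen. Of 7 stem and progenitor markers 1 was higher, Hoxa9, against the same 6.27%, and it was not called.

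**Figure D4:**
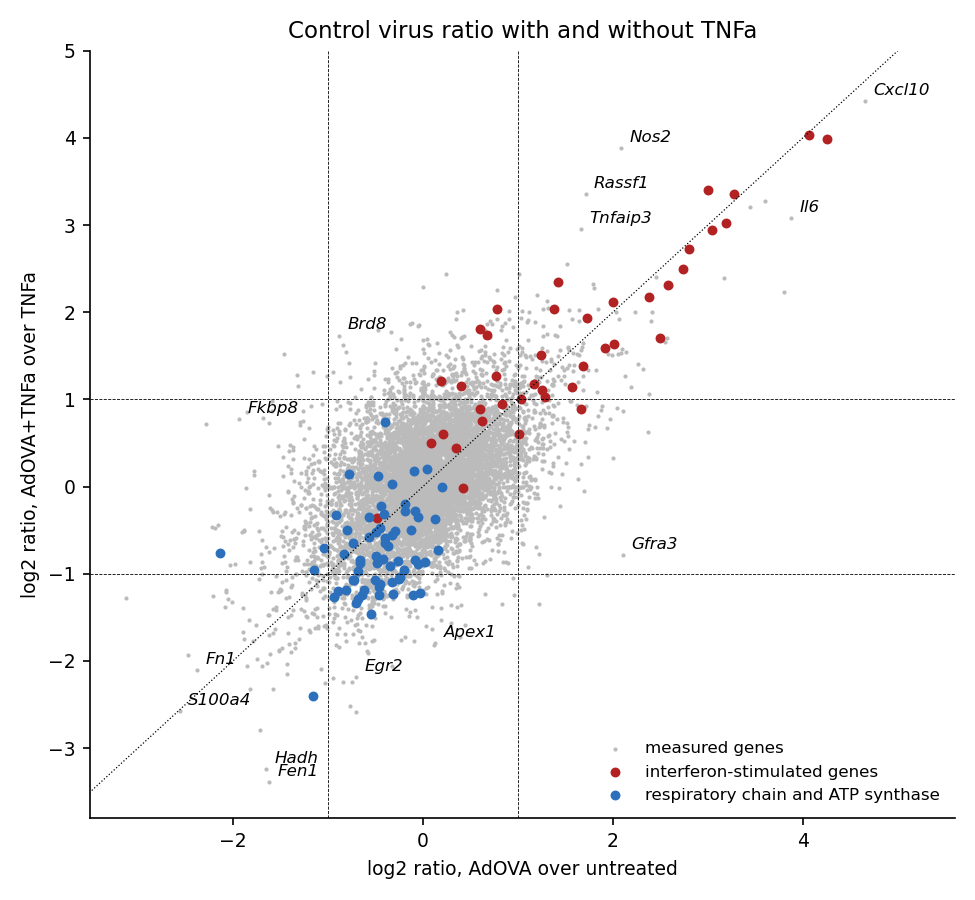
Log2 ratio of AdOVA+TNFa over TNFa (vertical) against that of AdOVA over untreated (horizontal) for 8926 measured genes, with the diagonal of equal ratios dotted, 2-fold lines dashed, interferon-stimulated genes in red and respiratory chain genes in blue. The interferon-stimulated genes with the largest ratios lie near the diagonal, respiratory chain genes centre on medians of -0.45 and -0.83, and Nos2, Rassf1 and Tnfaip3 lie above the diagonal.

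Where the pairs disagreed most, the genes were of mixed function. Brd8, a bromodomain protein, had 471 untreated and 255 with AdOVA, then 111 with TNFa and 368 with both, so AdOVA was lower without TNFa and higher with it. Sp110, a nuclear body protein, had 179 and 71.5, then 83.8 and 204. Gfra3, a co-receptor of the GDNF family, had 76.6 and 331, then 279.9 and 162, the reverse order. Apex1, an endonuclease of DNA repair, had 334 and 366, then 424 and 122. The mean log2 ratio over all probe sets without and with TNFa was -0.54 and -0.90 for Apex1, the same direction, 0.003 and 0.95 for Brd8, and -0.16 and 0.61 for Sp110. Opposite changes of at least 2-fold in both pairs were seen in 11 probe sets that were higher with TNFa and 4 that were lower. Over all measured probe sets the log2 ratios of both pairs correlated at r = 0.53, and over the brightest 25% at r = 0.70, where the points are probe sets of the same 4 arrays.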

How the data were processed

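The authors deposited 1 microarray intensity per probe set and array, on a linear scale, and the submitters' processing notes name MAS5, with no version given. Sample titles gave the groups, and array headers the hybridization rounds. Values under 53.5 (the 40th percentile over non-control probe sets and arrays) were raised to it and log2 was taken. This compresses ratios of dim genes and makes a ratio with 1 array under the floor a bound. The platform annotation gives 1 symbol to 20380 non-control probe sets, several to 691 and none to 1555, and no gene was named from several. Ratios were called at 2-fold. limma 3.58.1 in R 4.3.3 (lmFit, eBayes with trend) was fitted to 4 arrays, with Benjamini-Hochberg adjustment over 14902 probe sets, and the step was tested on simulated data. A number of arrays this small limits the precision.

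Genes were named by rule: the 10 per direction with the largest ratio and both arrays above the floor, up to 5 per direction with 1 array under it, the 10 per direction whose ratios differ most between pairs with all 4 arrays above it, and members of 24 function and 10 marker lists. Members and lists were chosen with earlier results of these data known. Alternatives were 2 other floors, 2 scalings, 1 filter on low signals, other limma fits, and genes read as the mean over their probe sets.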

Additional observations from a re-analysis of the deposited data

Results flagged for a closer look

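For 20 genes, each read from its brightest probe set, the AdOVA effect ran in opposite directions with and without TNFa, with 1 array per group, and the difference was not tested. The log2 ratio with TNFa minus that without was 2.71 for Fkbp8, 2.71 for Abhd12, 2.62 for Brd8, 2.60 for Sp110 and 2.48 for Tle5. It was 2.47 for Myo18a, 2.35 for Sirt2, 2.35 for Chpf2, 2.27 for Tmem37 and 2.26 for Lnx2. In the other direction it was -2.90 for Gfra3, -2.18 for Cbr3, -2.03 for Klhl11, -2.03 for Ercc6l2 and -1.99 for Hibch. It was -1.93 for Apex1, -1.88 for Exosc8, -1.85 for Gtf3c4, -1.78 for Gsap and -1.76 for Zfp518b. The genes were chosen for this difference, so their values describe the choice. As the mean over all probe sets, Apex1 ran in the same direction in both pairs (-0.90 with and -0.54 without TNFa), as did Brd8 (0.95 and 0.003).

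Control probe sets, which enter no comparison, held a signal on the AdOVA+TNFa array above that on the other arrays. For 18S ribosomal RNA the 5' probe set read 2601.1, the middle probe set 302.6 and the 3' probe set 1061.3, against 176.2, 115.4 and 373.2 on the TNFa array.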

How the results depend on the processing

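The 30 genes named for the size of their ratio kept their direction under equal medians and quantile normalization. The equal-medians shift of 0.21 is too small to turn ratios of that size. List medians kept theirs too, except the sensor list (0.03, and -0.18 with equal medians) and the mast cell markers (0.09, and -0.01 and -0.02 with equal medians and quantile normalization). Read as the mean over all probe sets, 16 of 50 genes named for their ratio or its difference between pairs moved by more than 0.40 (log2). That value is a spread per pair, taken from the median disagreement between pairs over measured probe sets. None of the 50 reversed. Counts depend on the floor and the scaling. With the floor at the 20th percentile (17.2), 2097 probe sets were 2-fold higher and 1306 lower with TNFa, 563 and 376 in both pairs, and limma called 97 and 30. With the floor at the 60th percentile (116.1), 507 were higher, 109 were lower in both pairs, and limma called 337 and 305. With equal medians the counts were 565 and 1266, 336 were lower in both pairs, and limma called 296 as risen. Quantile normalization left limma 212 and 119 calls, and the additive limma fit of all 6 arrays 315 and 177. limma called 0 in each direction without a filter (2175 at an unadjusted p under 0.05), where the prior degrees of freedom were 0.894 in place of 17.6. It also called 0 with the round as a block (2041), where they were 1.62. The other counts over all probe sets stayed within 1.5 times under these settings. With equal medians the genes counted were 334 higher and 711 lower. The causes of the other changes were not tested. No paired analysis was possible because the labels give no replicate numbers, beyond the agreement of both pairs that limma uses. Dim probe sets limit the precision, since their ratios are compressed by the floor.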
